A study of Rattus norvegicus with 16 samples.

Results

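Potassium channel subunits set the resting potential and the repolarization of cardiac myocytes, and the genes for them were followed through volume overload of the rat left ventricle. The set held every gene whose symbol in the annotation of the array begins with Kcn, which gave 75 of the 14218 genes and 126 of the 31099 probe sets measured. The gene symbol alone chose them, so the rule used no measured value. For 31 genes with several probe sets the brightest by its mean over all arrays was used, and the other 44 had 1 probe set each.

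Left ventricles came from adult male Sprague-Dawley rats. An aortocaval fistula (ACF), which joins the aorta to the vena cava and overloads the heart with volume, had been made 8, 16 or 24 weeks earlier in groups of 4 rats, and 4 more rats were controls. Each rat gave 1 array (16 in all), and the 8- and 16-week groups stand at the times of the compensated hypertrophy (CH) and heart failure (HF) phases. No group carried a genetic change. The titles call the control group baseline whereas the study describes sham controls, so age and surgery cannot be told apart from ACF if these rats were killed at baseline. The descriptions of the 24-week samples read 24, 25, 26 and 27 weeks, and samples after surgical correction were not analysed here.

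Voltage-gated channels carry the currents that end the action potential: the transient outward current (Ito) through Kcnd2 and Kcnd3 with their partner Kcnip2, the ultrarapid and slow currents through Kcna channels, and the delayed rectifier currents through Kcnh2 (IKr) and Kcnq1 (IKs). Inward rectifiers of the Kcnj family hold the resting potential (IK1), couple it to the energy state of the cell (IKATP) or answer acetylcholine (IKACh, best known from the atrium). Tandem-pore Kcnk channels pass background current, and Kcnma1 and the Kcnn family are opened by calcium. Loss of repolarizing potassium currents is a familiar feature of failing hearts.

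The values are log2 intensities from which the median of the array was subtracted, so that 0 is the median of all probe sets on that array and a difference of 1 is a doubling. The medians lay at a pair of levels. The 4 control arrays, 3 arrays at 8 weeks and 2 arrays at 16 weeks had medians from 6.13 to 6.17. The other 7 arrays, among them all 4 arrays at 24 weeks, had medians from 5.92 to 5.96. Results with the array level as a block are therefore given below for the Kcn genes that passed. They are not given for single marker genes. With that block only 2 of the 14218 genes passed at 24 weeks, 2 as higher and 0 as lower. Most of the marker calls at 24 weeks were therefore not kept with it. Markers of ventricular cardiomyocytes stood high in every group, with means over 9 genes from 7.46 to 7.90, but the atrial light chain gene Myl7 ranged from -0.58 to 6.91 between arrays. Among 10 macrophage markers, 10 passed the test as higher at 16 weeks, 4 at 24 weeks and 2 at 8 weeks. Their mean level ran from 1.47 to 1.83 on the control arrays, from 2.40 to 2.71 at 8 weeks, from 2.57 to 3.40 at 16 weeks and from 2.04 to 2.70 at 24 weeks. Of 7 fibroblast markers 3 passed as higher at 16 weeks and 1 at 24 weeks, with mean levels of 4.085 to 4.83 in control hearts and 4.96 to 5.42 at 16 weeks. Of 6 endothelial markers 1 passed as higher at each of these times. The part of these cells in the Kcn values was not tested. A bulk array cannot tell fewer cells of a type from less RNA per cell.

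In control ventricles, 25 of the 75 genes had a mean above the array median (33.3%, against 66.6% of all genes), and 23 of them were above it on each of the 4 control arrays. Across the whole series 18 genes were above the median on all 16 arrays and 42 were below it on all 16. A position above the median tells that a probe set is bright, and levels of different probe sets were not set against each other.

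Of 31 pore-forming voltage-gated genes, 12 were above the median: Kcna2, Kcna5, Kcnc4, Kcnd2, Kcnd3, Kcng2, Kcnh2, Kcnh3, Kcnq1, Kcnq5, Kcns1 and Kcns3. Kcnq1, the pore of IKs, stood at 2.68 ± 0.024 (SD, n = 4). Kcng2, a modulatory subunit that forms no channel alone, stood at 4.445 ± 0.036. Of 13 accessory genes, 4 were above it: Kcnip2, Kcnip3, Kcnab1 and Kcne4. Kcnip2, the calcium-binding partner of the Ito channels, stood at 6.095 ± 0.086. Of 15 inward rectifier genes, 4 were above it, namely the pores of IKATP channels (Kcnj11 and Kcnj8) and of IKACh (Kcnj3 and Kcnj5). Kcnj11 stood at 4.12 ± 0.18 in control hearts. The genes of IK1 were not among them: Kcnj2 stood at -1.24 ± 0.14, Kcnj12 at -0.62 ± 0.18 and Kcnj4 at -0.02, although IK1 is a main current of the ventricle, so a dim probe set does not show that a gene is absent. Of 11 tandem-pore genes, Kcnk2, Kcnk3 and Kcnk6 were above the median, and of 5 calcium- or sodium-activated genes, Kcnn1 and Kcnt1.

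**Figure D1:**
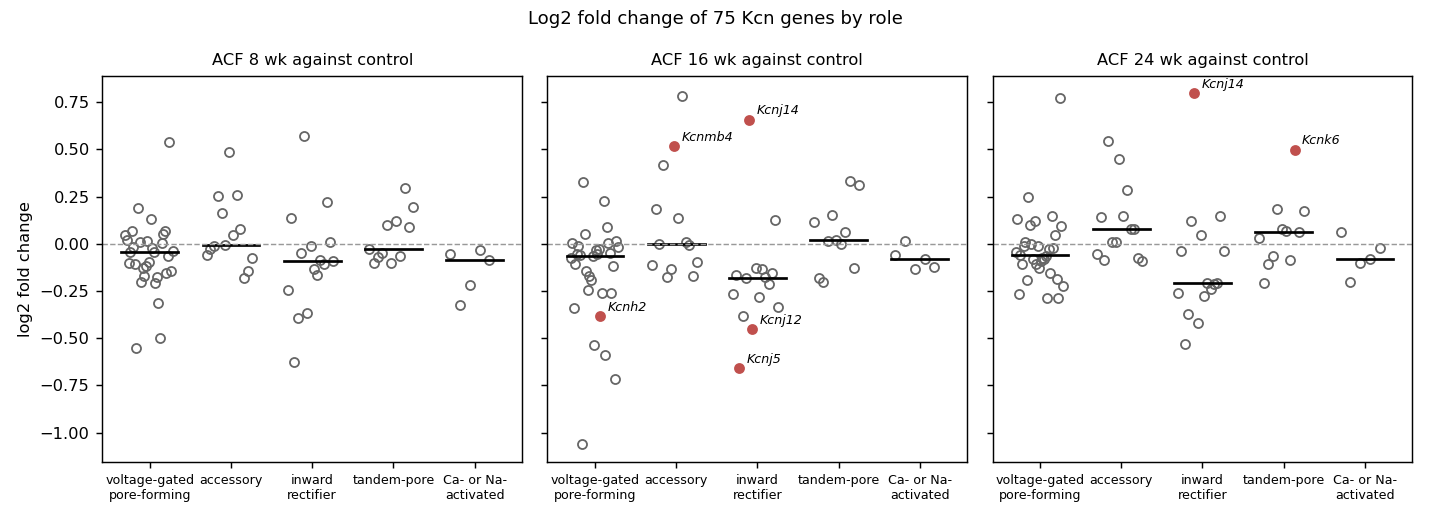
Log2 fold change against control (vertical axis) of the 75 Kcn genes at 8, 16 and 24 weeks after ACF (panels), by role (horizontal axis). Each circle is 1 gene, black lines are medians of a role and filled circles are genes that passed the test, 0 genes at 8 weeks, 5 at 16 weeks and 2 at 24 weeks.

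Few Kcn genes passed the test, and the largest fall was seen in a probe set of Kcnk2 that did not stand for its gene. Differences between groups were tested with limma, the p-values were Benjamini-Hochberg adjusted across the 14218 genes, and a gene passed at an adjusted p under 0.05. At 16 weeks, 5 of 75 Kcn genes passed, where 9.09% of all genes did. Kcnj14 and Kcnmb4 rose (2 of 75, against 5.83% of all genes), and Kcnj5, Kcnj12 and Kcnh2 fell (3 of 75, against 3.26%). At 24 weeks, Kcnj14 and Kcnk6 rose and no Kcn gene fell, where 0.907% of all genes passed, 0.612% as higher and 0.295% as lower. At 8 weeks no Kcn gene passed by limma (0.0563% of all genes did), and 6 of 75 had an unadjusted p under 0.05, where 7.82% of all genes had one. No gene of any kind passed between 16 and 8 weeks or between 24 and 16 weeks (0% in each), and 4 and 3 Kcn genes had an unadjusted p under 0.05, where 8.69% and 8.996% of all genes had one. The Kcn share was thus 6.67% at 16 weeks, below the background, and 2.67% at 24 weeks, above it on 2 genes.

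Over the 75 genes the median log2 fold change was -0.05, -0.08 and -0.04 at 8, 16 and 24 weeks, with medians of all genes between -0.003 and 0.0006. At 16 weeks 52 of the 75 values were negative, where 49.6% of all genes had a positive value. The plot of fold changes by role shows the lowest medians for the inward rectifiers, at -0.09, -0.18 and -0.21 at 8, 16 and 24 weeks. Of these 15 genes, 4, 2 and 4 had a positive value. The comparisons with control share the same 4 control arrays, so their values are not independent of each other. Over all genes 829 passed as higher and 463 as lower at 16 weeks. Without centring the arrays the split was 359 and 1006, and with the median of genes in place of that of all probe sets it was 706 and 714. At 24 weeks it was 87 and 42, and 81 and 1594 without centring. Among Kcn genes the split without centring was 1 higher and 6 lower at 16 weeks and 1 higher and 9 lower at 24 weeks. On centred values 1 or 2 Kcn genes also passed as lower at 24 weeks under some alternatives. There were 2 under array weights and 1 with averaged probe sets, where 304 and 42 of all genes passed as lower. Without centring, the median of all genes itself lay at -0.12 at 16 weeks and -0.21 at 24 weeks.

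Among inward rectifiers, Kcnj14 (gene ID 276720, probe set 1370970_at), which encodes a channel of the strong rectifier class, rose. Its values were -0.47, -0.17, -0.19 and -0.08 on the control arrays. They were 0.03, 0.47, 0.65 and 0.22 at 8 weeks, 0.25, 0.10, 0.85 and 0.53 at 16 weeks, and 0.51, 1.02, 0.39 and 0.35 at 24 weeks. All 12 ACF arrays lay above all 4 control arrays, and the 3 ACF groups overlapped. The rise was 0.66 on a log2 scale at 16 weeks (adjusted p = 0.0283, SE 0.18), or 1.58-fold, and 0.80 at 24 weeks (adjusted p = 0.0443, SE 0.18), or 1.74-fold. At 8 weeks it was 0.57 (adjusted p = 0.330). With a block for the array level the values were 0.47 at 16 weeks (adjusted p = 0.109) and 0.43 at 24 weeks (adjusted p = 0.469), so neither call was kept. Among the arrays of the higher level the 16-week value was 0.40 (adjusted p = 0.154).

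Kcnj5 (gene ID 29713, probe set 1368560_at), a pore subunit of the IKACh channel, fell. Its control arrays read 2.06, 1.91, 2.07 and 1.81. The arrays at 8 weeks read 1.34, 1.41, 1.10 and 1.51, those at 16 weeks 1.76, 1.62, 0.75 and 1.09, and those at 24 weeks 1.39, 1.2015, 1.70 and 1.44. Every ACF array was below every control array. The log2 fold change was -0.66 at 16 weeks (SE 0.18, adjusted p = 0.0278), -0.62 at 8 weeks (adjusted p = 0.280) and -0.53 at 24 weeks (adjusted p = 0.145). At 16 weeks, both arrays at the higher level were nearest to control and both at the lower level farthest, and the value was -0.46 with the level blocked (adjusted p = 0.109), and -0.28 among the arrays of the higher level (adjusted p = 0.212). The second Kcnj5 probe set, 1387248_at, had a value of -0.36 at 16 weeks (adjusted p = 0.0890 over all probe sets). It read 0.56 to 0.79 in control hearts, which 8 weeks (0.25 to 0.73) and 16 weeks (0.115 to 0.68) overlapped and 24 weeks (0.29 to 0.43) did not. Its channel partner Kcnj3, the other IKACh pore gene, read 1.44, 1.46, 0.66 and 0.67 in control hearts, a range that arrays of each ACF group shared, and no comparison of it passed. On the control arrays Myl7 read -0.33, 5.19, -0.45 and 6.34, the reverse of the order of Kcnj5. The order of Kcnj3 there was neither that of Myl7 nor its reverse. At 8 weeks the array lowest in Myl7 (-0.004) was also the lowest in Kcnj5 (1.10). The part of atrial RNA in either gene was not tested.

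Kcnj12 (gene ID 117052, probe set 1369795_at), a channel gene of IK1, fell. It read -0.60, -0.42, -0.62 and -0.85 in control hearts. The readings were -0.93, -1.17, -0.88 and -0.99 at 8 weeks, -1.10, -1.23, -0.97 and -1.01 at 16 weeks, and -1.25, -0.996, -0.88 and -1.03 at 24 weeks. Again no ACF array reached the control range, and the ACF groups overlapped. At 16 weeks the log2 fold change was -0.45 (SE 0.11, adjusted p = 0.0153), a level of 0.731 times control. It was -0.37 at 8 weeks (adjusted p = 0.299) and -0.42 at 24 weeks (adjusted p = 0.0695). At 16 weeks it also passed with the array level blocked (-0.45, adjusted p = 0.0295) and among the arrays of the higher level alone (-0.54, adjusted p = 0.0170), but not without control replicate 2 (-0.39, adjusted p = 0.0543) or without 16-week replicate 2 (-0.40, adjusted p = 0.0509). The other IK1 genes had values of -0.21 for Kcnj2 (adjusted p = 0.148) and -0.17 for Kcnj4 (adjusted p = 0.455) at 16 weeks, so Kcnj14 was the 1 gene of 4 with a positive value. The probe set of Kcnj12 was below the array median on all 16 arrays.

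The 300-base windows around the start of Kcnj5 and Kcnj14, inward rectifier genes that moved in opposite directions, are shown so that a reader can see what a promoter of each holds. They are RefSeq sequences of build GRCr8, with 250 bases before and 50 after the annotated start, Kcnj5 from chr8:39011047-39011346 and Kcnj14 from chr1:105437209-105437508, both on the minus strand and written 5′ to 3′ of the gene. Capitals mark any match, on either strand, to a TATA box, whose letters are TATAAA here, to a GC box with the letters GGGCGG, or to a GATA site with the letters AGATAA, none of which overlap.
Kcnj5: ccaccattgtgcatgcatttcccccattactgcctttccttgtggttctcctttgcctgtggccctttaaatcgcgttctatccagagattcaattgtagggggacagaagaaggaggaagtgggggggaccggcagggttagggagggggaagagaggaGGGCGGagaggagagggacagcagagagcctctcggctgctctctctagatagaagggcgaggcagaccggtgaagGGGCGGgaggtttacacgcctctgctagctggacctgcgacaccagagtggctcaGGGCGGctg
Kcnj14: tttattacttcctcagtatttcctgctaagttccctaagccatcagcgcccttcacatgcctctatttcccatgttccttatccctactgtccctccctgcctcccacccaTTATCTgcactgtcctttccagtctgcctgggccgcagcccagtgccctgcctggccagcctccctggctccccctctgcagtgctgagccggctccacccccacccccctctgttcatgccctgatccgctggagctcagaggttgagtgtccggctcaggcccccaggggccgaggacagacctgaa
The Kcnj5 window holds 3 GC boxes and the Kcnj14 window 1 GATA site on the opposite strand. Of 27457 rat promoters of this length, 34.9% hold the GC box, 11.3% the GATA site and 14.3% the TATA box. Of 52 Kcn genes with a window, 30 hold the GC box and 2 the TATA box. These are matches of letters, the arrays did not measure binding, and the annotated start may not be the one used in the heart.

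**Figure D2:**
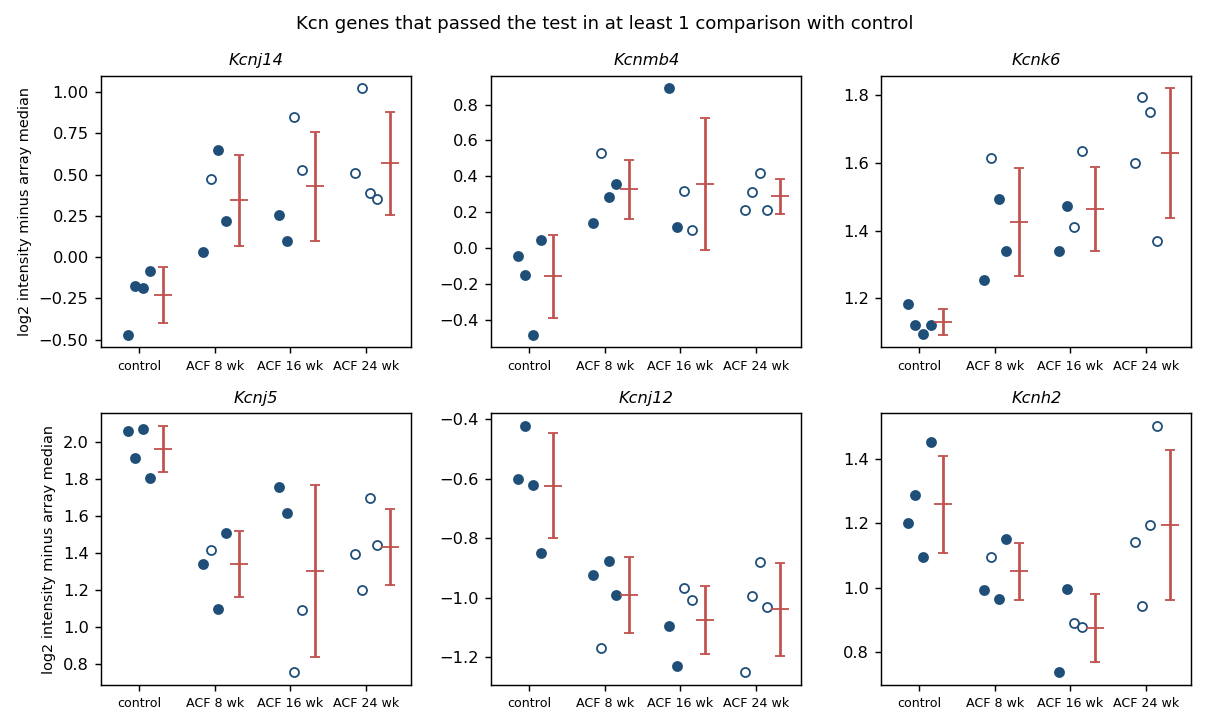
Log2 intensity minus the array median (vertical axis) on each array of control, ACF 8, 16 and 24 weeks (horizontal axis) for the 6 Kcn genes that passed in at least 1 comparison. Filled points are arrays with a median at the higher level and open points at the lower level, red marks are means with SD of 4 arrays, and in Kcnj14, Kcnmb4, Kcnk6, Kcnj5 and Kcnj12 no ACF array overlaps the control arrays.

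Among voltage-gated pores, Kcnh2 (gene ID 117018, probe set 1368343_at), the hERG channel of IKr, fell at 16 weeks. Control hearts read 1.1997, 1.29, 1.10 and 1.45, and hearts at 16 weeks 0.74, 0.99, 0.89 and 0.88, so that these groups did not overlap. Hearts at 8 weeks read 0.99, 1.10, 0.96 and 1.15, and hearts at 24 weeks 1.14, 0.94, 1.195 and 1.502, and both overlapped control. Its log2 fold change was -0.38 at 16 weeks (SE 0.11, adjusted p = 0.0417), -0.21 at 8 weeks (adjusted p = 0.713) and -0.06 at 24 weeks (adjusted p = 0.830). The difference between 24 and 16 weeks was 0.32 (SE 0.11, adjusted p = 0.466), so a difference between the time points was not shown. With the level as a block the 16-week value was -0.40 (adjusted p = 0.0576). Its partner Kcne2 had values of -0.013, -0.0032 and -0.084 at 8, 16 and 24 weeks, and none passed.

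Of the genes of Ito, Kcnd2, Kcnd3 and Kcnip2 had values below control at 16 weeks and Kcna4 one above it. None passed on its brightest probe set. Kcnd3 read 0.90, 1.66, 1.39 and 0.66 in control hearts and 0.34, 0.10, 0.72 and 1.11 at 16 weeks, a log2 difference of -0.59 that did not pass (SE 0.21, adjusted p = 0.0927). With the level as a block it was -0.81 (adjusted p = 0.0241). A further probe set of Kcnd3, 1378111_at, passed as lower at 16 weeks by limma (-0.65, adjusted p = 0.0227 over all probe sets) and is described below. Kcnd2 had a value of -0.53 at 16 weeks on its brightest probe set. There this rested on replicate 2, at -0.04 against 1.22, 1.94 and 2.11 on the other arrays. Without that array it was -0.09 (adjusted p = 0.925), while among arrays of the higher level, where replicates 1 and 2 remain at 16 weeks, it was -1.25 (adjusted p = 0.0356). The other Kcnd2 probe set, 1387476_at, read 0.63, 0.54, 1.72 and 0.34 in control hearts. At 16 weeks it read -0.15, -0.53, 0.53 and 0.66, so replicates 1 and 2 were both below all control arrays, and it did not pass. Kcna4, the slow Ito pore, had values of -0.31, 0.23 and -0.03 at 8, 16 and 24 weeks.

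Kcnip2 read 5.04 on replicate 1 at 16 weeks and 6.06, 6.36 and 6.23 on the other arrays of that group, against 6.19, 6.13, 6.06 and 5.99 in control hearts. Its value was -0.17 with all arrays and 0.12 without replicate 1. A further Kcnip2 probe set, 1370773_a_at, read 3.66, 3.03, 2.49 and 2.76 in control hearts. It read 2.03, 2.31, 2.955 and 2.70 at 16 weeks, so replicates 1 and 2 were both below all control arrays, and it did not pass. On the dim 1368639_at replicate 3 was lowest (-2.42), not replicate 1 (-2.05). Replicate 1 at 16 weeks was also lowest for Kcnj11, the pore of the IKATP channel of the myocyte, with 2.95 against 4.03, 4.04 and 4.09. Of the further Kcnj11 probe sets, 1387698_at was lowest on replicate 1 as well (1.80). On 1369782_a_at replicate 2 was lowest (0.97) and replicate 1 read 1.30. For Kcna2 replicate 1 was lowest on the brightest probe set, with -2.08 against 0.29, 0.58 and -0.07. On the other Kcna2 probe set, 1370612_at, it was highest, with 0.36 against -0.04, 0.10 and -0.14. On the brightest probe sets, leaving replicate 1 out took the 16-week log2 fold change from -0.34 to -0.06 for Kcnj11 and from -1.06 to -0.48 for Kcna2. This array also had the lowest mean of the cardiomyocyte markers (7.46) and the highest of the macrophage markers (3.40), and their part in these values was not tested.

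**Figure D3:**
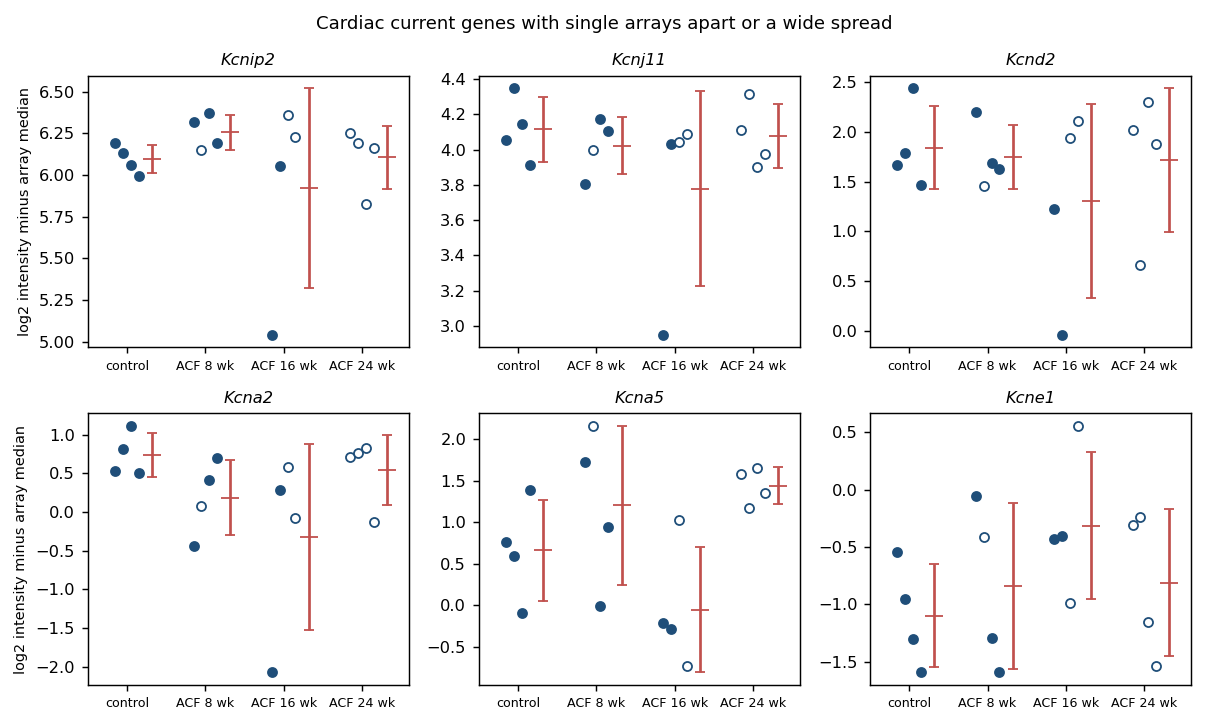
Log2 intensity minus the array median (vertical axis) on each array, by group (horizontal axis), for 6 genes of cardiac potassium currents, with means and SD of 4 arrays in red and filled points for arrays at the higher level. The brightest probe set of each gene is shown. Replicate 1 at 16 weeks stands below the rest in Kcnip2 (5.04), Kcnj11 (2.95) and Kcna2 (-2.08), and Kcna5 and Kcne1 vary widely within groups.

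Kcna5, the ultrarapid current channel, varied widely from array to array. It read 0.76, 0.60, -0.09 and 1.39 in control hearts, 1.73, 2.16, -0.01 and 0.95 at 8 weeks, -0.21, -0.29, 1.03 and -0.74 at 16 weeks, and 1.58, 1.17, 1.65 and 1.36 at 24 weeks. All 4 arrays at 24 weeks lay above all 4 at 16 weeks, a log2 difference of 1.49 (SE 0.42, unadjusted p = 0.00231, adjusted p = 0.310). The difference between 16 and 8 weeks was -1.26 (SE 0.42, adjusted p = 0.404), and its values against control were 0.54, -0.72 and 0.77 at 8, 16 and 24 weeks, none of which passed. The array highest in Myl7 was also highest in Kcna5 in control hearts (6.34) and at 8 weeks (6.91). The array lowest in Myl7 was lowest in Kcna5 in both (-0.445 and -0.004). At 16 weeks the order was another, with Kcna5 at -0.29 on the array highest in Myl7 (4.01) and highest, at 1.03, on an array with Myl7 at 1.17. At 24 weeks the array highest in Myl7 (6.55) was highest in Kcna5. The array lowest in Myl7 there (0.45) read 1.58 in Kcna5 and was not the lowest. Sln, another atrial marker, had the array order of Kcna5 at 16 weeks (1.01, 0.996, 1.655 and 0.25). It had that order at 24 weeks as well (1.16, -0.30, 4.30 and 0.095), but not in control hearts or at 8 weeks. Nr2f2 had the order of Kcna5 at 24 weeks alone, and Nppa and Tbx5 had it in no group. The part of atrial RNA was not tested. Kcne1, the partner of Kcnq1 in IKs, had a value of 0.78 at 16 weeks (adjusted p = 0.213), and Kcnq1 had one of -0.06. Kcne1 read -0.54, -0.95, -1.30 and -1.59 in control hearts and -0.43, -0.40, -0.99 and 0.56 at 16 weeks. Replicate 4 at 16 weeks was its only array above the median. In control hearts and at 8 and 24 weeks its replicates 1 and 2 were above replicates 3 and 4, but not at 16 weeks.

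Among accessory subunits, Kcnmb4 (gene ID 66016, probe set 1387318_at), a beta subunit of the large-conductance calcium-activated channel, rose at 16 weeks. Control hearts read -0.05, -0.15, -0.49 and 0.05. The arrays at 8 weeks read 0.14, 0.53, 0.28 and 0.36, those at 16 weeks 0.89, 0.12, 0.32 and 0.10, and those at 24 weeks 0.21, 0.32, 0.42 and 0.21. Every ACF array was above the control arrays, and replicate 1 at 16 weeks stood above the rest. The log2 fold change was 0.52 at 16 weeks (SE 0.16, adjusted p = 0.0465), 0.49 at 8 weeks (adjusted p = 0.342) and 0.45 at 24 weeks (adjusted p = 0.159). Without replicate 1 at 16 weeks the value there was 0.34 (adjusted p = 0.137). This call was the weakest of the set: it was 0.54 (adjusted p = 0.0644) with the level as a block and it passed under 9 of 28 alternatives. Replicate 1 at 16 weeks was also highest in macrophage markers (3.40 against 2.57 to 3.13), and their part was not tested. The pore gene of that channel, Kcnma1, was below the median on all 16 arrays, with values of -0.06, -0.06 and 0.06 against control. Kcne4, which inhibits several Kcn pores, had values of 0.26, 0.42 and 0.545, with all 4 arrays at 24 weeks (0.57 to 0.68) above the control arrays (-0.12 to 0.29) and an adjusted p of 0.114.

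Among tandem-pore channels, Kcnk6 (gene ID 116491, probe set 1387264_at), a background channel, rose at 24 weeks. Control hearts read 1.18, 1.12, 1.09 and 1.12, a narrow range. The readings were 1.25, 1.61, 1.49 and 1.34 at 8 weeks, 1.34, 1.47, 1.41 and 1.63 at 16 weeks, and 1.60, 1.80, 1.75 and 1.37 at 24 weeks. All 12 ACF arrays were above all control arrays. Against control the log2 fold change was 0.50 at 24 weeks (SE 0.11, adjusted p = 0.0358), 0.33 at 16 weeks (adjusted p = 0.0577) and 0.29 at 8 weeks (adjusted p = 0.420). All arrays at 24 weeks were at the lower level and all control arrays at the higher, and with the level as a block the value was 0.33 (adjusted p = 0.360). Its second probe set, 1370776_a_at, had 0.24 (adjusted p = 0.540), and the mean of both did not pass.

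Of the other Kcn genes above the median in control hearts, none passed in any comparison. Kcnk3, a tandem-pore background channel, had values of 0.09, -0.13 and 0.06 at 8, 16 and 24 weeks, and Kcnj8, the vascular IKATP pore, had 0.14, -0.17 and -0.04. Kcng2 had values of -0.14, 0.01 and 0.09. Kcnn1, a small-conductance calcium-activated channel, had -0.22, -0.14 and -0.10, and Kcnip3, a calcium-binding protein of the Kcnip family, had -0.14, -0.17 and -0.07.

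Counted without a model, Kcn genes with all 4 arrays above all 4 control arrays numbered 3 at 8 weeks (3.43% of all genes), 3 at 16 weeks (10.1%) and 4 at 24 weeks (4.82%). Those with all 4 arrays below numbered 3 at 8 weeks (2.73%), 6 at 16 weeks (6.32%) and 3 at 24 weeks (4.46%). Kcnj14, Kcnmb4 and Kcnk6 were the 3 above at 8 and at 16 weeks, joined by Kcne4 at 24 weeks. Kcnj5 and Kcnj12 were below at each time, with Kcnn4 at 8 weeks, with Kcnh2, Kcnh3, Kcnh4 and Kcnq5 at 16 weeks and with Kcns1 at 24 weeks. For groups that do not overlap the exact two-sided permutation test always gives p = 0.0286, the smallest that 4 against 4 arrays allow. It therefore adds nothing to these counts.

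The largest change of any potassium channel probe set was not that of a gene's brightest one. Fitted on its own among 20832 probe sets, 1370342_at of Kcnk2, the stretch-activated background channel, fell. It read 2.27, 1.92, 1.63 and 1.14 in control hearts and 1.11, 0.61, 0.50 and 1.52 at 8 weeks. It read -1.002, -0.07, 0.23 and 0.38 at 16 weeks and 0.38, -0.08, 0.37 and 0.58 at 24 weeks. All arrays at 16 and 24 weeks lay below all control arrays. Its log2 fold change was -1.85 at 16 weeks (SE 0.29, adjusted p = 0.00163), a level of 0.277 times control, -1.43 at 24 weeks (SE 0.29, adjusted p = 0.0345) and -0.80 at 8 weeks (adjusted p = 0.508). With the level as a block it was -2.0 at 16 weeks (adjusted p = 0.00220) and -1.72 at 24 weeks (adjusted p = 0.145). The probe set that stood for Kcnk2, 1382723_at, read 1.55 to 1.82 in control hearts, had a value of -0.20 at 16 weeks (adjusted p = 0.249) and one of -0.11 at 24 weeks (adjusted p = 0.649), and did not pass. Both carry the same gene symbol, and which transcripts each one detects was not tested.

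**Figure D4:**
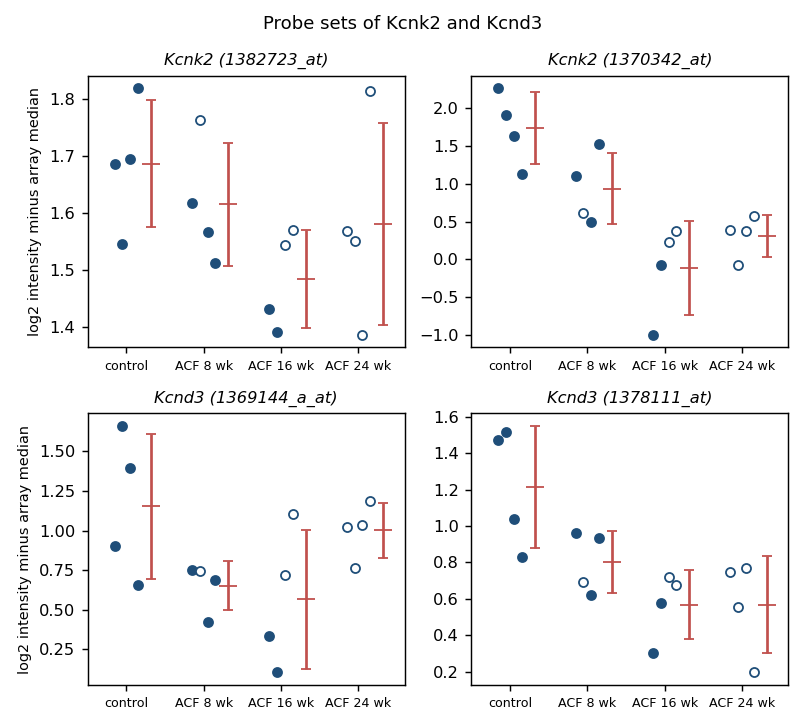
Log2 intensity minus the array median (vertical axis) on each array, by group (horizontal axis), for the brightest and a further probe set of Kcnk2 (upper row) and of Kcnd3 (lower row). Red marks are means with SD of 4 arrays, filled points are arrays at the higher level, and 1370342_at of Kcnk2 falls from 1.14 to 2.27 in control hearts to -1.002 to 0.38 at 16 weeks. The vertical axes differ between panels, and 1382723_at spans 1.39 to 1.82 over all 16 arrays.

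For Kcnd3, 1378111_at read 1.47, 1.52, 1.04 and 0.83 in control hearts and 0.30, 0.58, 0.72 and 0.68 at 16 weeks, and it fell, with a log2 fold change of -0.65 at 16 weeks (adjusted p = 0.0227, SE 0.16). At 24 weeks its value was -0.65 (adjusted p = 0.0678), and it did not overlap control at either time. The brightest Kcnd3 probe set overlapped control at 24 weeks, with arrays from 0.76 to 1.18 (mean 1.00) against 0.66 to 1.66 (mean 1.15). In all 6 Kcn probe sets passed at 16 weeks, where 7.16% of all probe sets did, and 2 at 24 weeks, where 0.6% did. Of the 51 further Kcn probe sets, 38 had the sign of the gene's brightest one at 8 weeks, 29 at 16 weeks and 33 at 24 weeks. Values of one probe set per gene thus describe that probe set.

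Of the 30 measured genes of cardiac potassium currents, 2 rose and 3 fell at 16 weeks, 2 rose at 24 weeks and none passed at 8 weeks, where 9.09%, 0.907% and 0.0563% of all genes passed at 16, 24 and 8 weeks. These are the genes described above. Their medians at 8, 16 and 24 weeks were -0.08, -0.13 and -0.05. Among 16 measured partners and regulators of the channels, 1 passed as lower at 16 weeks (3.26% of all genes), 1 at 24 weeks (0.295%) and none as higher (5.83% and 0.612%). It was Ank2 in both, the gene of ankyrin-B, which anchors channels and transporters at the membrane. Ank2 read 3.33, 3.16, 3.03 and 2.71 in control hearts, 2.16, 2.36, 2.23 and 2.56 at 16 weeks, and 2.48, 2.33, 2.59 and 2.51 at 24 weeks. Neither of these ACF groups overlapped control. The log2 fold change was -0.73 at 16 weeks (SE 0.13, adjusted p = 0.00314) and -0.58 at 24 weeks (SE 0.13, adjusted p = 0.0453). Hearts at 8 weeks read 2.84, 2.55, 2.84 and 2.98 and overlapped control, with a value of -0.26 (adjusted p = 0.684). All control arrays were at the higher level and all 24-week arrays at the lower. Once the level was blocked, 0 of 14218 genes passed as lower at 24 weeks, so that call of Ank2 was not kept. Blocked values of Ank2 itself are not given here. Abcc9, the regulatory subunit that pairs with Kcnj11 and Kcnj8, had values of -0.01 at 16 weeks and -0.12 at 24 weeks. Irx3 and Irx5, transcription factors of cardiac conduction and repolarization, had values of -0.41 and -0.32 at 16 weeks, and neither passed.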

How the data were processed

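Per the labels, RNA from left ventricles was biotin-labelled and hybridised to Affymetrix arrays, 1 array per rat. RMA in Affymetrix Expression Console 1.2 (submitters' processing notes) gave the deposited log2 intensity of each probe set. RMA includes background correction and quantile normalization, but the deposited array medians lie at a pair of levels, which 1 normalization of all arrays together would not usually leave. Which arrays the authors normalized together is not given in the sources used here. The array named in the study's methods differs from the one whose probe sets are in the data. No raw intensities were processed.

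The annotation gave 1 symbol to 20832 of 31099 probe sets, several to 436 and none to 9831. All 126 Kcn probe sets had their gene ID in the RefSeq table of GRCr8, which changed 0 symbols, and no coordinates of probe sets were used. Each array was centred on the median of all its probe sets, and dim probe sets were kept. Group means were fitted by limma 3.58.1 (R 4.3.3) on the 16 arrays together, with p adjusted over 14218 genes (Benjamini-Hochberg, threshold 0.05), and over 20832 probe sets where these were fitted on their own, an analysis added after seeing the data. SE comes from the fit, and SD from the 4 arrays of a group. The number of arrays limits the precision. Exact permutation tests compared 4 with 4 arrays. The functions were tested on simulated data.

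Named were all Kcn genes above the array median in control hearts, all that passed in any comparison, and genes of cardiac potassium currents with their partners. The members, lists and tests were chosen with earlier results of these data known. Groups came from the titles. Replicate numbers share only a number between groups. Alternatives were the values as deposited, quantile normalization, the array level as a block, the higher level alone, a replicate block, the methods' test and threshold (fold above 1.5, unadjusted p under 0.05), only the groups compared, a trend and robust prior, array weights, the upper 50% of genes, averaged probe sets and leaving out each array. Centring on the median of genes and leaving out the 2 arrays of lowest weight were chosen after seeing the data. Some listed genes are not reported here.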

Additional observations from a re-analysis of the deposited data

Results flagged for a closer look

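Over 156 groups of 4 arrays, for the 39 Kcn genes named, 6 had 1 array far from the other 3, where chance alone gives about 1 in 20 groups, or 7.8. All are centred log2 intensities. Kcnj11, the IKATP pore, was low on replicate 1 at 16 weeks, at 2.95 against 4.03 to 4.09. Kcna2, a channel of the slow delayed currents, was low on replicate 4 at 24 weeks, at -0.13 against 0.71 to 0.83. Kcnab2, a beta subunit of Kcna channels, was high on replicate 1 at 24 weeks, at 0.057 against -0.24 to -0.20. Kcnj8, the vascular IKATP pore, was high on replicate 4 at 8 weeks, at 2.56 against 2.21 to 2.25. Kcnk1, a tandem-pore channel, was low on replicate 3 at 24 weeks, at -1.49 against -1.28 to -1.27. Kcnt1, a sodium-activated channel, was high on replicate 4 of control, at 0.42 against 0.32 to 0.33. No named gene had all arrays of one time point above the control mean and all of another below it.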

How the results depend on the processing

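The counts of Kcn genes passing rested on small margins. At 8 weeks, 0 passed in the main analysis. By the methods' threshold 1 passed (1.33% of all genes), as with only the groups compared (0.506%) and with array weights (1.31%). At 16 weeks, against 5, the count was 7 as deposited (9.60% of all genes passed) and 7 with averaged probe sets (8.38%). It was 6 with array weights (12.1%), 2 with the array level as a block (11.2%) and 3 within the higher level (13.0%). By the methods' test after adjustment it was 0 (1.55%), and by the methods' threshold 2 (5.37%). Over the upper 50% of genes, where 14 Kcn genes were tested, 3 passed (21.4%, against 15.4% of those genes). With single arrays left out 0 to 6 passed, with 0 without control replicate 2 (5.75%). At 24 weeks, against 2, it was 10 as deposited (9 lower, with 11.8% of all genes passing in either direction) and 0 with the level as a block (0.0141%). By the methods' test it was 0 (0%), by the methods' threshold 1 (2.56%) and with array weights 5 (5.83%). Over the upper 50% of genes it was 1 of 14 (1.11% of those genes). Without both arrays of lowest weight, an alternative added after seeing the data, it was 5 (5.14%). With single arrays left out it was 0 to 3. It was 0 without control replicate 1, 2 or 3 or 24-week replicate 1, 2 or 3 (0.0352% to 0.549%). Between 24 and 16 weeks the methods' threshold gave 1, Kcna5 (0.654% of all genes). With a replicate block 4 passed at 16 weeks (9.06%), without Kcnmb4, and 2 at 24 weeks (0.767%). Deviations of arrays with the same number correlated from -0.32 to 0.24, so the numbers were not taken as pairs. No called gene changed sign under any alternative. Kcnj12 passed under 25 of 28 alternatives at 16 weeks, Kcnj14 under 20 of 28, Kcnj5 under 20 of 29, Kcnh2 under 14 of 29 and Kcnmb4 under 9 of 28. At 24 weeks Kcnj14 passed under 17 of 27 and Kcnk6 under 16 of 28. The Kcnk2 probe set 1370342_at passed under 20 of 21 at 16 weeks, the methods' test excepted, and 11 of 20 at 24 weeks, where the replicate block gave an adjusted p of 0.0562, and that of Kcnd3 under 16 of 21. Over all genes, 129 passed at 24 weeks, 1675 as deposited, 2 with the level as a block and 829 with array weights. No level holds both control and 24-week arrays, and the block there leans on the other ACF arrays. The causes were not tested.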
